A study of Mus musculus with 8 samples.

Results

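The Tctex-type dynein light chains Dynlt1a, Dynlt1b, Dynlt1c, Dynlt1f and Dynlt3 were followed in ribosome-associated RNA of cortical synapses, 5 of the 56576 genes in the table. They were chosen on measured values, since normalized counts of Dynlt1b were close to 0 in the Erbb4 mutant libraries, and each gene had 1 row under its symbol. The contrast between genotypes is therefore given for these 5 genes as a description, with no test. Dynlt1a, Dynlt1b, Dynlt1c and Dynlt1f are near-identical copies on chromosome 17, and Dynlt3 is a more distant relative on chromosome X.

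RNA was sequenced from neocortical synaptosomes, preparations of pinched-off synaptic terminals, of mice at postnatal day 15. Controls were Lhx6-Cre;ErbB4+/+;Rpl22HA/HA and mutants were Lhx6-Cre;ErbB4F/F;Rpl22HA/HA, with 4 libraries each, described in the methods as biological replicates. All 8 libraries thus shared the Lhx6-Cre driver, which is active in the interneuron lineage of the medial ganglionic eminence (MGE) and preoptic area, and the Rpl22HA/HA allele, which puts an epitope on ribosomal protein L22 in Cre-expressing cells so that their ribosomes can be pulled down. Erbb4, a receptor of neuregulins, was deleted in the same cells in the mutants. Mice of both sexes were used, and a supplementary figure legend of the paper mentions more than a single sequencing batch. The labels tie no library to a sex, litter or batch, so no within-sex or within-batch value could be given and the part of either was not tested.

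Cytoplasmic dynein is the motor that carries cargo toward the minus ends of microtubules, and in neurons it moves organelles, receptors and signalling endosomes. Its heavy chain makes force, while its intermediate chains hold light chains of the Tctex, LC8 and roadblock families. Tctex-type light chains sit on the intermediate chain and have been described to bind cargo proteins as well as partners outside the motor. In the mouse, Dynlt1 exists as several copies in the region of the t complex.

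The table placed the 4 Dynlt1 copies within 349647 bases of mm10. Dynlt1a lay at chr17:6306293-6317474, Dynlt1b at chr17:6430112-6436293, Dynlt1c at chr17:6601779-6607891 and Dynlt1f at chr17:6646602-6655939, while Dynlt3 lay at chrX:9653594-9662985. In the GENCODE annotation Dynlt1b and Dynlt1c are on the plus strand and the others are on the minus strand. A single annotated transcript of each, with 5 exons, was used and is called its main transcript here. The 4 copies all had 342 coding bases that encode the same protein of 113 residues. Dynlt1a, Dynlt1c and Dynlt1f did not differ at any coding base. Dynlt1b differed from them by C21A, counted from 1 at the first coding base with the base of Dynlt1a first, at position 6430232 of chromosome 17, and this change in codon 7 leaves the residue the same. The 27 coding bases of exon 1 are shown because they hold the sole coding base by which Dynlt1b can be told from its copies, set in capitals. They lie at chr17:6317374-6317400 (minus strand) in Dynlt1a, chr17:6430212-6430238 (plus strand) in Dynlt1b, chr17:6601810-6601836 (plus strand) in Dynlt1c and chr17:6655774-6655800 (minus strand) in Dynlt1f.
Dynlt1a: atggaagacttccaggcctcCgaggag
Dynlt1b: atggaagacttccaggcctcAgaggag
Dynlt1c: atggaagacttccaggcctcCgaggag
Dynlt1f: atggaagacttccaggcctcCgaggag

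Dynlt3 had 351 coding bases and 116 residues, and its sequence was far from the copies. Against Dynlt1a, 62.2% of aligned coding positions and 48.3% of aligned residues were identical. Even in the 60-base exon stretch where they were most alike, 40 bases matched. That stretch is shown to make plain how far Dynlt3 is from the copies, with the differing bases in capitals. It lies in exon 3 of both genes, at chr17:6311727-6311786 in Dynlt1a and chrX:9657059-9657118 in Dynlt3, both on the minus strand.
Dynlt1a: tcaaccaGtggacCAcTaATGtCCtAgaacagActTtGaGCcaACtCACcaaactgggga
Dynlt3: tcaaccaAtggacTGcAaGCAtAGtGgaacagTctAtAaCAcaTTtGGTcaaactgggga

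How far the copies can be separated was measured over their main transcripts in windows of 50 bases, each looked for in the transcripts of every other GENCODE gene on either strand. In Dynlt1b, 121 of 722 windows (16.8%) occurred in no other gene. They formed an unbroken run from the 5′ end of the transcript, and the last of them began at transcript base 121, which is the differing coding base printed above. Every window that began further downstream also occurred in another gene, and 76.3% of its windows occurred in Dynlt1a. Windows found in no other gene made up 32.3% in Dynlt1a, 6.26% in Dynlt1c, 6.93% in Dynlt1f and 100% in Dynlt3. With windows of 100 bases the shares were 49.2% in Dynlt1a, 18.0% in Dynlt1b, 13.5% in Dynlt1c and 14.9% in Dynlt1f. How reads that match several copies were counted is not given in the sources used here, nor are the lengths of the counted regions. Values of the single copies are therefore uncertain in how reads were split among them, and their sum is free of that split alone. Windows were also shared outside the 4 copies, 8.31% of those of Dynlt1a with Tmem181a, the gene next to it, and 37.7% of those of Dynlt1b and 40.6% of those of Dynlt1f with the pseudogene Dynlt1-ps1. Where reads from such shared sequence were counted is likewise open for the sum.

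Before the members, the targeted gene was checked. Erbb4 had 3589 ± 1614 normalized counts (reads divided by 1 size factor per library; SD, n = 4) in controls and 1410 ± 321 in mutants. The library labelled control replicate 1 had 1640, less than mutant replicates 2 (1711) and 3 (1648), so log2 differences of the members, their sum and Tmem181b-ps are given below with and without it. All 9 fixed markers of MGE-derived interneurons had a log2 fold change below 0, with a median of −1.02 and a range from −2.08 to −0.32. A gene is called here where its unadjusted p was no larger than 0.05 and its fold no smaller than 1.5, as held for 3.17% of the 31171 genes tested in the lower and 3.98% in the higher direction. By this rule 4 of the 9 were called lower, Gad1 (log2 −1.04), Gad2 (−0.93), Pvalb (−2.08) and Kcnc1 (−1.02). The summed level of the 9 ran from 60526 to 477967 normalized counts in controls and from 20536 to 185640 in mutants. Sst alone, which was not called, had 31270 to 367992 in controls and 5964 to 143143 in mutants. All 4 oligodendrocyte markers were also below 0 (median −0.65), with 2 called lower (sums of 201022 to 619561 and of 171976 to 255022). Mbp alone, which was not called, had 168511 to 535543 in controls and 141073 to 218180 in mutants. Among the 6 excitatory neuron, 5 astrocyte, 4 microglia and 3 endothelial markers, 1, 0, 0 and 0 were called lower and 1, 0, 0 and 1 higher. Their median log2 fold changes were −0.15, −0.11, −0.22 and 0.46. The lowest summed levels of the excitatory neuron, astrocyte, microglia and endothelial markers in any control were 111224, 58295, 15433 and 100302 normalized counts. In any mutant they were 107116, 65506, 16787 and 140682. RNA of cells outside the Lhx6 lineage was thus present in every group, and the part of these shifts in the values below was not tested. In ribosome pulldowns from synaptosomes, the sources of a marker's level, number of cells and RNA per cell among them, cannot be told apart.

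Dynlt1b was the member that nearly vanished. Its normalized counts were 1644, 1162, 788 and 1137 in control replicates 1, 3, 4 and 5, and 9.40, 135, 13.3 and 17.9 in mutant replicates 2, 3, 4 and 5. Every mutant was below every control, and mutant replicate 3 stood well above the other mutants. The means were 1183 ± 352 in controls and 43.8 ± 60.7 in mutants (SD, n = 4), so that mutants held 3.71% of the control level. The log2 fold change was −5.53 with a standard error of 0.72 and a 95% interval from −7.11 to −3.94. It is a difference between means of log2 values, and so not the log2 of that percentage. Among the 19137 genes tested with a mean of at least 100 normalized counts, 7 had a lower log2 fold change. Without control replicate 1 the log2 fold change of Dynlt1b was −5.35, and without mutant replicate 3 it was −6.34. With all libraries, DESeq2 gave −4.72 and edgeR −4.71.

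The mutant values rested on few reads. Mutant replicates 2, 4 and 5 held 11, 13 and 18 reads of Dynlt1b, against 919 to 1206 in 3 of the controls and 787 in control replicate 4. Mutant replicate 3 held 146 reads, and its exact Poisson 95% interval of 123 to 172 reads, which covers counting error alone, lay above the upper bounds of 19.7, 22.2 and 28.4 reads in the other mutants. Without that library the mutants had 13.5 ± 4.23 normalized counts (n = 3), or 1.14% of the control mean.

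**Figure D1:**
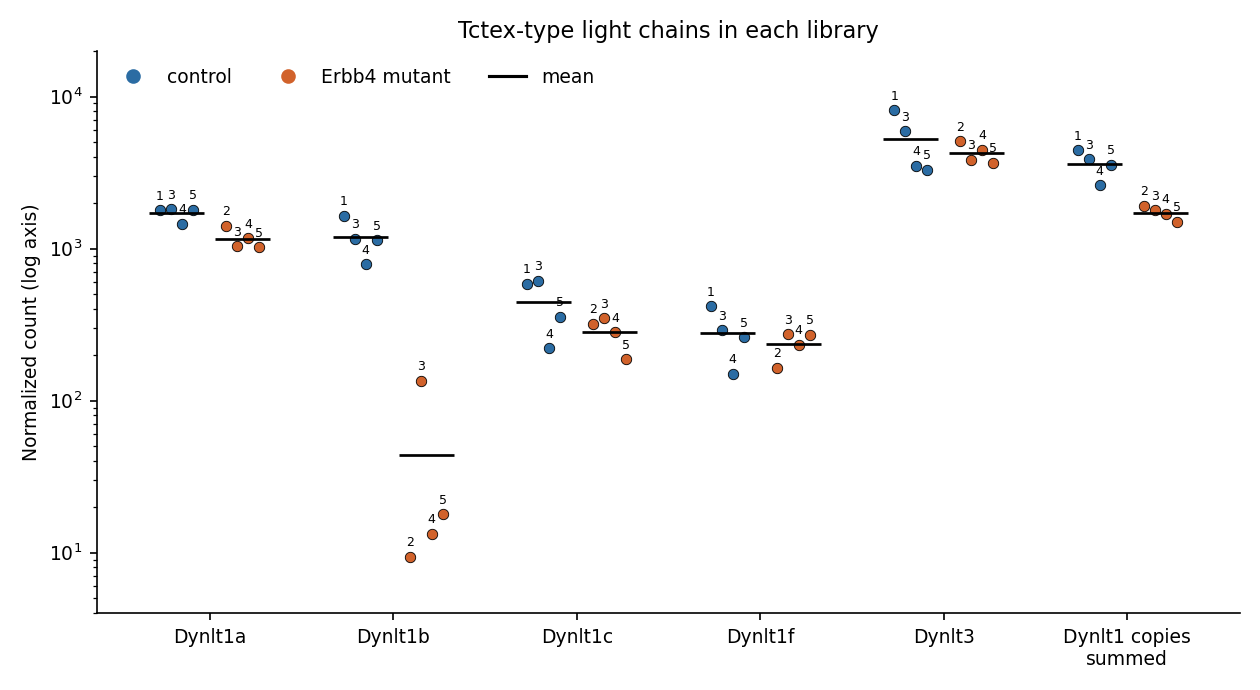
Normalized counts (log axis) of the 5 Tctex-type light chains and of the summed Dynlt1 copies in each control (blue) and Erbb4 mutant (orange) library, with replicate numbers above the points and bars at the means. The mutant points of Dynlt1b lie between 9.40 and 135, all under the lowest control at 788, while the ranges of Dynlt1c, Dynlt1f and Dynlt3 overlap between genotypes.

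Dynlt1a, which had the most reads of the 4 copies, was lower in mutants by a smaller amount. It had 1791, 1813, 1456 and 1802 normalized counts in control replicates 1, 3, 4 and 5, and 1416, 1037, 1166 and 1024 in mutant replicates 2, 3, 4 and 5. The genotypes did not overlap, but the gap between the lowest control, replicate 4, and the highest mutant, replicate 2, was narrow. The mean of 1716 ± 173 in controls stood against 1161 ± 182 in mutants (SD, n = 4). On the log2 scale the difference was −0.57 (SE 0.20, 95% interval −1.002 to −0.138), just short of the fold of 1.5 used for calls, and −0.55 without control replicate 1. Dynlt1a also overlapped the last 2022 bases of Tmem181a, a neighbouring gene for a transmembrane protein, and the library kit is not one that marks strand, so reads in that overlap cannot be told apart. Tmem181a itself had 4256 ± 1084 normalized counts in controls and 3041 ± 298 in mutants, a log2 difference of −0.46 ± 0.21 (SE) that was not called (adjusted p = 0.58, limma).

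Dynlt1c and Dynlt1f had fewer reads, and their ranges overlapped between genotypes. Dynlt1c had 589, 615, 221 and 356 normalized counts in control replicates 1, 3, 4 and 5 and 321, 347, 283 and 188 in mutant replicates 2, 3, 4 and 5. Its log2 difference of −0.57 (SE 0.39) had an interval from −1.42 to 0.28, wide enough to hold both no change and a loss by more than the called fold. Dynlt1f had 417, 292, 150 and 261 in the controls and 164, 273, 234 and 272 in the mutants, in the same order. Control replicates held both its highest and its lowest value, and its log2 difference was −0.18 (SE 0.38, interval −1.02 to 0.65). Without control replicate 1 the difference was −0.39 for Dynlt1c and 0.04 for Dynlt1f. Both genes, and the pseudogene Tmem181c-ps between them, lie within the span of Sytl3 in the table, and that gene had at most 122 normalized counts in any library.

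Dynlt3, which encodes the other cytoplasmic Tctex-type light chain, showed no such loss. It had 8128, 5933, 3498 and 3310 normalized counts in control replicates 1, 3, 4 and 5 and 5090, 3838, 4455 and 3681 in mutant replicates 2, 3, 4 and 5. All mutants fell within the range of the controls, which spread 2.46-fold from lowest to highest. The means were 5217 ± 2279 and 4266 ± 643 (SD, n = 4), with a log2 difference of −0.20 (SE 0.29, interval −0.84 to 0.44), and 0.05 without control replicate 1.

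By the thresholds used for all other genes, Dynlt1b lay past the call for lower genes and the other 4 members did not, in a table where 3.17% of genes tested were called lower. In Dynlt1b and Dynlt1a every mutant was below every control, as in 2.17% of all genes tested. The members were selected on this contrast, so these are no tests of them and nothing is read from the shares. All 5 passed the filter on low values, a mean of at least 10 normalized counts in 1 genotype.

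The sum of the 4 copies does not depend on how the counted reads were split among them. It was 4442, 3881, 2615 and 3556 normalized counts in control replicates 1, 3, 4 and 5, and 1911, 1792, 1696 and 1501 in mutant replicates 2, 3, 4 and 5. The genotypes did not overlap. The control mean of 3623 ± 765 and the mutant mean of 1725 ± 173 (SD, n = 4) put the mutants at 47.6% of controls, with a log2 difference of −1.05 (SE 0.21, interval −1.504 to −0.596) and of −0.94 without control replicate 1. Dynlt1b made up 60.0% of the difference of 1898 normalized counts between the means, Dynlt1a 29.2%, Dynlt1c 8.46% and Dynlt1f 2.33%. These percentages are of counts not divided by transcript length, which differs among the copies, and levels per kilobase follow below. Without Dynlt1b, the other three copies summed to 2441 ± 440 in controls and 1681 ± 171 in mutants, 68.9% of the control mean, and these ranges overlapped, with 1828 in the lowest control and 1901 in the highest mutant. The mean of none of the other copies was higher in the mutants. The 9 markers of MGE-derived interneurons had a median log2 difference of −1.02, beside −1.05 for the sum. The part of that shift in the sum was not tested. Dynlt3 and the copies also kept different proportions, the log2 ratio of summed Dynlt1 to Dynlt3 counts being −0.45 ± 0.41 in controls and −1.30 ± 0.14 in mutants (SD, n = 4).

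Among controls the share of Dynlt1b in the sum ran from 29.9% to 37.0% and that of Dynlt1a from 40.3% to 55.7%. The share of Dynlt1c ran from 8.46% to 15.8% and that of Dynlt1f from 5.74% to 9.39%. Dynlt1b gave 37.0%, 29.9%, 30.1% and 32.0% of the summed counts in control replicates 1, 3, 4 and 5. In mutant replicates 2, 3, 4 and 5 it gave 0.492%, 7.52%, 0.786% and 1.19%. Dynlt1a made up 48.4% ± 6.49 of the sum in controls and 67.2% ± 6.79 in mutants, which is a shift in proportions, since its own level was lower there. Dynlt1c took 11.9% ± 3.31 and 16.3% ± 2.85, and Dynlt1f 7.50% ± 1.49 and 13.9% ± 3.99 (SD, n = 4). Shares of a sum are tied to each other, so these are not separate results.

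**Figure D2:**
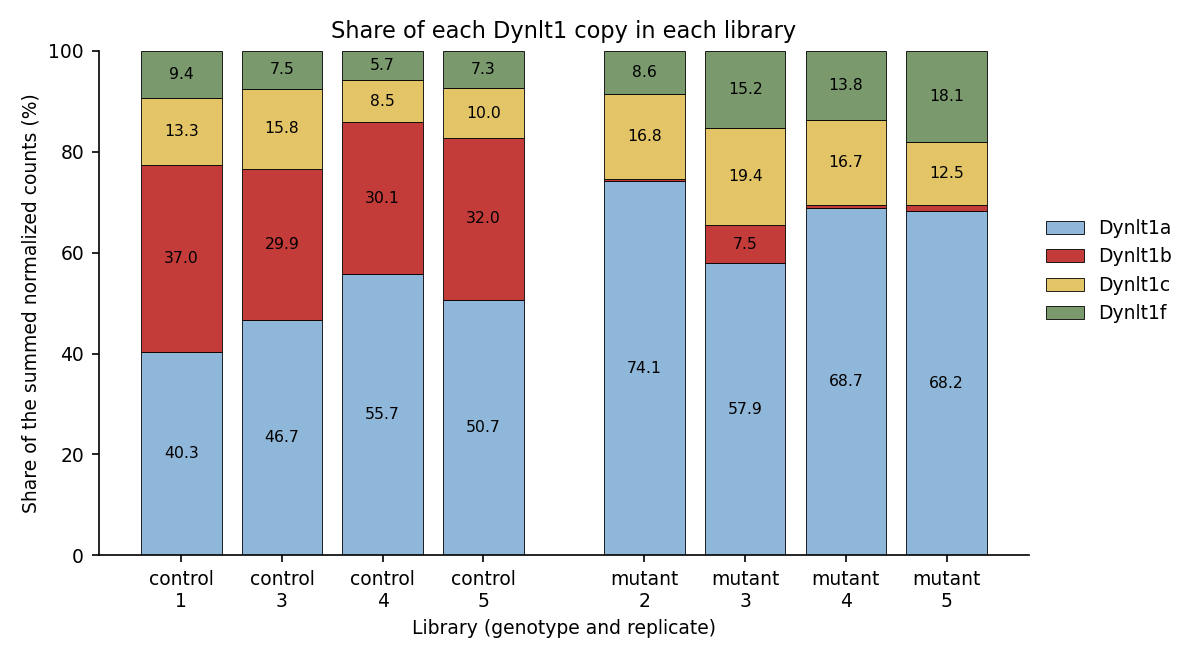
Share of each Dynlt1 copy in the summed normalized counts of the 4 copies (%, stacked bars) for each control and Erbb4 mutant library, with shares above 5% printed. Dynlt1b (red) takes between 29.9% and 37.0% in the controls and 7.52% or less in the mutants.

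Since the transcripts differ in length, levels of different copies were compared per kilobase of the main GENCODE transcript, 3321 bases for Dynlt1a, 771 for Dynlt1b and for Dynlt1f, 2589 for Dynlt1c and 2176 for Dynlt3. Dynlt1f also has longer transcripts, since 2127 windows of 50 bases of Dynlt1c occurred in it, against 722 windows in its main transcript. Levels per kilobase of Dynlt1f and of the summed copies therefore depend on the transcript chosen. On this scale, which is not that of the counted regions, Dynlt1b was the highest of the copies in controls, at 1534 ± 456 normalized counts per kilobase (SD, n = 4). Dynlt1a followed at 517 ± 52.1, then Dynlt1f at 363 ± 142 and Dynlt1c at 172 ± 73.1. In all 4 controls Dynlt1b was above each other copy and Dynlt1c below each other copy, but Dynlt1a and Dynlt1f were close, with Dynlt1a higher in 3 of 4. The order below Dynlt1b turned when counts were divided instead by the number of 50-base windows found in no other gene, a scale added after the data were seen. Per 1000 such windows the control means were 9774 ± 2908 for Dynlt1b, 5599 ± 2196 for Dynlt1f, 2801 ± 1191 for Dynlt1c and 1625 ± 164 for Dynlt1a (SD, n = 4). Dynlt1b thus had the highest mean of the copies on both scales, and Dynlt1a was second by one and last by the other. Per kilobase, Dynlt1b had the lowest mean in mutants, at 56.9 ± 78.8 per kilobase, below Dynlt1c at 110 ± 27.0, although mutant replicate 3 had more of it (175) than of Dynlt1c (134).

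The copies were compared within controls by exact paired permutation tests on log2 ratios per kilobase of the same main transcripts (sign flips, two-sided), 7 pairs in all. With 4 libraries the smallest p that this design allows is 0.125, so that none could pass 0.05. Dynlt1a was below Dynlt1b in 4 of 4 controls, with a log2 ratio of −1.53 ± 0.32 (SD) (exact p = 0.125, adjusted p = 0.175). The ratio of Dynlt1a to Dynlt1f, 0.59 ± 0.48, held in 3 of 4 (exact p = 0.25, adjusted p = 0.292). The summed copies and Dynlt3 had 2586 ± 698 and 2398 ± 1047 normalized counts per kilobase in controls, with a log2 ratio of 0.17 ± 0.37 and 2 of 4 controls on each side (exact p = 0.75, adjusted p = 0.75). The other 4 pairs had the smallest p. In mutants the same 2 levels were 822 ± 103 for the summed copies and 1960 ± 295 for Dynlt3.

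The gene next to Dynlt1b in the table was also far lower in mutants. Tmem181b-ps is an annotated pseudogene on the minus strand at chr17:6438526-6477117, with 2232 bases between it and the end of Dynlt1b. It had 342, 494, 1084 and 1039 normalized counts in control replicates 1, 3, 4 and 5, and 65.8, 131, 54.3 and 44.7 in mutant replicates 2, 3, 4 and 5. No mutant reached the lowest control, and mutant replicate 3 was again the highest of the mutants. Its log2 difference was −3.27 ± 0.49 (SE) and it was called, with an adjusted p of 0.069 (limma). Without control replicate 1 the difference was −3.58. Within the controls the order was not that of Dynlt1b, since control replicate 1 had the most Dynlt1b and the least Tmem181b-ps. Of its 2377 windows of 50 bases, 58.4% occurred in no other gene, more than in Dynlt1b, and none was shared with Dynlt1b. However, 36.0% of its windows occurred in Tmem181a, 21.6% in Tmem181c-ps and 5.38% in Dynlt1a. Its value is therefore also uncertain in how reads were split among genes.

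Most of the neighbourhood was not called. Of 59 other genes of the table within 1 Mb of a Dynlt1 copy, 36 were tested, and 2 were called lower and 1 higher, beside 3.17% and 3.98% of all genes. Their median log2 difference was 0.14, with 15 of 36 below 0, against a median of 0.06 over all genes tested. Gtf2h5, which encodes a small subunit of the repair and transcription factor TFIIH, lies 344629 bases away and had 1849 ± 915 in controls and 993 ± 170 in mutants (log2 −0.77 ± 0.34, adjusted p = 0.58, limma), with overlapping ranges. The unnamed gene GSMG0017071 was higher, but on 4.71 ± 7.01 and 27.4 ± 24.5 normalized counts. The call of Gtf2h5 was lost without control replicate 1 or 3 or any 1 of the mutants, and that of GSMG0017071 without control replicate 1, 3 or 4 or mutant replicate 2, 3 or 4. Gtf2h5 was also not called with a pseudocount of 0.1, quantile normalization or limma without a trend. GSMG0017071 was not called with a pseudocount of 10, quantile normalization, edgeR, DESeq2 or a replicate block. Tmem181c-ps, next to Dynlt1c, had 263 ± 39.1 in controls and 169 ± 33.9 in mutants without overlap (log2 −0.64 ± 0.33, not called, adjusted p = 0.58, limma). Ezr, for the membrane linker ezrin, had 8171 ± 2242 and 7897 ± 639 normalized counts. Around Dynlt3, 14 of 37 genes were tested and 1 was called lower, B630019K06Rik (1242 ± 464 and 716 ± 104 normalized counts, log2 −0.71 ± 0.31, adjusted p = 0.58, limma). That call was lost when any library but control replicate 5 was left out, and with quantile normalization, limma without a trend or a replicate block.

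**Figure D3:**
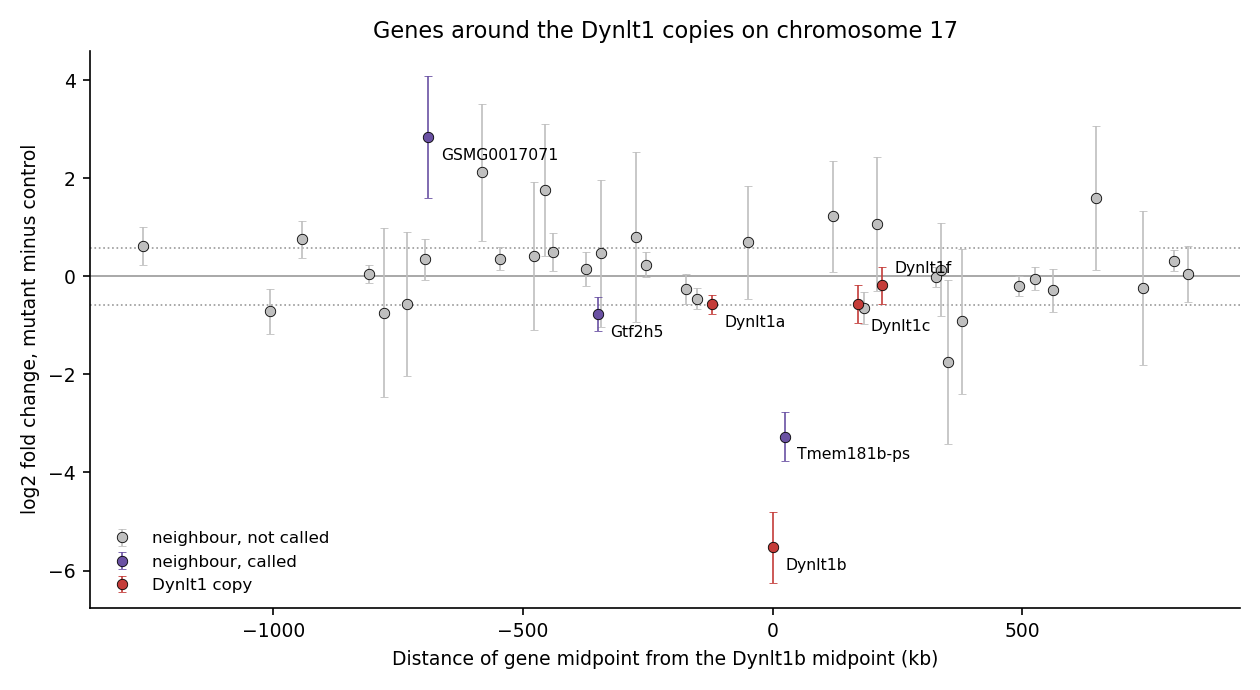
log2 fold change (mutant minus control, bars are standard errors) of the tested genes around the Dynlt1 copies against the distance of their midpoints from that of Dynlt1b in kb, with copies in red, called neighbours in purple and dotted lines at a fold of 1.5. Dynlt1b at −5.53 and Tmem181b-ps at −3.27 lie far below the other genes, and the flanking copies Dynlt1a, Dynlt1c and Dynlt1f lie between −0.57 and −0.18.

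Other genes of the motor, its partners and kinesins were taken from fixed lists, here called motor lists, with 63 tested genes. Of these, 11 encode proteins known to bind Tctex-type light chains and are not parts of the motor. Over the 63 genes, 4 (6.35%) were called lower and 0 higher, beside 3.17% and 3.98% of all genes tested. The 11 binding partners held 2 of the 4 calls. Without control replicate 1, 2 genes of the lists were called. None passed an adjusted p of 0.05 with limma, edgeR or DESeq2, while 8, 11 and 13 had an unadjusted p under 0.05. The median log2 difference over the 63 genes was −0.19, against 0.06 over all genes tested, with 38 below 0. Of the other Tctex-type light chains, Dynlt2b had 286 ± 231 normalized counts in controls and 151 ± 40.6 in mutants and Dynlt5 23.9 ± 36.2 and 4.19 ± 3.92, neither called, and Dynlt2a1, Dynlt2a3 and Dynlt4 were too low to test.

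Among subunits of cytoplasmic dynein 1, 1 of 8 tested (12.5%) was called lower and 0 higher, beside the same 3.17% of all genes for lower calls. This was Dynll2, an LC8-type light chain, with 2864 ± 858 normalized counts in controls and 1563 ± 260 in mutants and no overlap (log2 −0.84 ± 0.24, adjusted p = 0.58, limma). The call held when any library was left out. Its paralog Dynll1 (−0.61 ± 0.32) and the roadblock light chain Dynlrb1 (−0.85 ± 0.46) had log2 differences of like size with overlapping ranges and were not called. The heavy chain Dync1h1 (−0.27 ± 0.28), the intermediate chains Dync1i1 (−0.28 ± 0.19) and Dync1i2 (−0.11 ± 0.26), which carry the Tctex-type chains, and the light intermediate chain Dync1li1 (−0.17 ± 0.20) lay closer to 0. Dync1li2, the other light intermediate chain, was the exception in direction, at 0.54 ± 0.23 (SE), under the fold of a call. Thus 7 of the 8 subunits had a difference below 0, 1 was called, and none passed an adjusted p of 0.05.

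In the 12 genes of dynactin, the complex that links dynein to cargo, 1 (8.33%, beside 3.17% of all genes) was called lower and 0 higher. Dctn3, a subunit of its shoulder, had 4310 ± 1953 in controls and 2286 ± 399 in mutants with overlapping ranges (log2 −0.81 ± 0.32, adjusted p = 0.58, limma). No gene was called among 4 tested dynein 2 subunits (median −0.03), 17 dynein regulators and adaptors (median 0.15) or 9 kinesins, motors of the opposite direction (median −0.12). Among 11 tested genes for proteins known to bind Tctex-type light chains, 2 (18.2%, beside 3.17% of all genes) were called lower and 0 higher. Ntrk3, the receptor of neurotrophin-3, had 3414 ± 956 and 2149 ± 581 (log2 −0.66 ± 0.26), and Vdac1, a channel of the outer mitochondrial membrane, had 6146 ± 3160 and 2989 ± 928 (log2 −0.94 ± 0.37), both with adjusted p = 0.58 in limma. The calls of Dctn3, Ntrk3 and Vdac1 were lost when control replicate 1, control replicate 3, mutant replicate 4 or mutant replicate 5 was left out. With all libraries, they were also lost in limma without a trend.

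**Figure D4:**
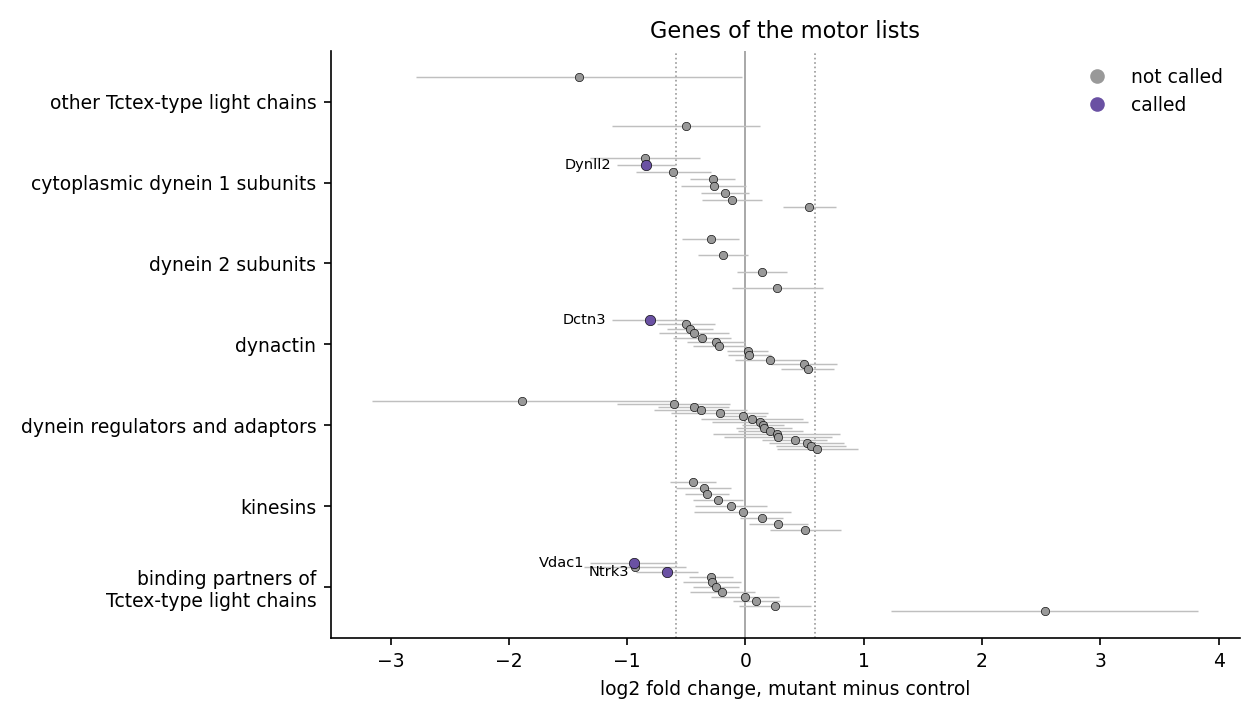
log2 fold change (mutant minus control, bars are standard errors) of the tested genes of 7 motor lists, with called genes in purple and named and dotted lines at a fold of 1.5. The 4 called genes, Dynll2, Dctn3, Ntrk3 and Vdac1, lie between −0.94 and −0.66, and the lowest value of these lists is −1.89, against −5.53 for Dynlt1b.

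The genes whose log2 values ran most like those of Dynlt1b over the 8 libraries, among 19136 with a mean of at least 100, were the unnamed genes GSMG0071363 and GSMG0020294 and then Slc15a3, Ttc3 and Nudt18, with Pearson correlations from 0.954 to 0.986. All 5 had lower values in every mutant than in any control, by a log2 difference between −1.32 and −0.26, and none was on chromosome 17. Most like the summed copies were Fndc4, Fbxl15, Tcap, GSMG0036139 and Kcnmb4 (0.973 to 0.984). Most like Dynlt3 were 2610001J05Rik, Aldh2, Ninj1, Bpgm and Dars (0.971 to 0.977), whose ranges overlapped between genotypes as those of Dynlt3 did. These correlations are a description, since the 8 points share the genotype difference and the depth of each library.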

How the data were processed

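RNA bound to HA-tagged ribosomes in cortical synaptosomes was sequenced in 4 control and 4 Erbb4 mutant libraries, grouped by their labels. Reads had been aligned by the authors with STAR 2.4.0 to mm10 and counted on constitutive regions of Mouse Fast DB genes. The deposited values are a signal of normalized counts, which the authors made by dividing counts by a DESeq2 size factor per library. Each library's values are whole multiples of its smallest value (tolerance 0.01), from which reads were recovered, 51010687 to 80226984 per library, so counting error is small beside the spread between libraries except at a few reads. No column was left out.

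Genes with a mean of at least 10 normalized counts in 1 genotype entered a limma 3.58.1 fit (R 4.3.3; lmFit, then eBayes with a trend) after 1 was added and log2 taken, and p-values were adjusted by Benjamini-Hochberg. The pseudocount understates changes of low genes. A gene was called where its unadjusted p did not exceed 0.05 and its fold reached 1.5. Alternatives were DESeq2 1.42.0 and edgeR 4.0.16 (TMM, quasi-likelihood) on the recovered reads, other pseudocounts, filters, normalization, a replicate block, and leaving out each library. The main limma fit and the edgeR fit were checked on simulated counts, and the other alternatives were not.

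Named were the 5 members, their sum, Erbb4, called genes of the motor lists, called neighbours within 1 Mb, and the 5 genes most correlated with Dynlt1b, with the sum and with Dynlt3. Other genes given as neighbours, subunits or light chains, and the markers given by name, were added after their values were seen. Members and lists were chosen with earlier results of these data known. Sequences, exons and lengths came from GENCODE M21 (mm10).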

Additional observations from a re-analysis of the deposited data

Results flagged for a closer look

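Among 30 groups of 4 libraries examined for the genes named, 2 held a library far from the other three, where chance gives about 1.5. In the mutants, replicate 3 had 135 normalized counts of Dynlt1b, against 9.40 to 17.9 in the other mutants, and its gap to the nearest was 0.933 of the range. The same library had the highest Tmem181b-ps of the mutants. In the controls, replicate 4 had 1456 normalized counts of Dynlt1a, against 1791 to 1813 in the other controls, a gap of 0.94 of the range, and it was also the lowest control for Dynlt1b, Dynlt1c and Dynlt1f. The cause of either was not tested.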

How the results depend on the processing

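Over 17 other fits the log2 difference ranged from −6.34 to −4.71 for Dynlt1b, −1.20 to −0.94 for the summed copies, −0.67 to −0.51 for Dynlt1a, −0.86 to −0.37 for Dynlt1c, −0.45 to 0.20 for Dynlt1f and −0.39 to 0.05 for Dynlt3, a description since these values chose the members. Tmem181b-ps (−3.58 to −3.03) and Dynll2 (−0.97 to −0.68) were called in all 17. Genes called over the whole table, 2229, ran from 1194 to 3767 as 1 library was left out (most without control replicate 5, least without mutant replicate 4), and 14 passed an adjusted p of 0.05. Genes of the motor lists called, 4, ran from 1 to 9 (1 without mutant replicate 5, 9 without control replicate 4 or mutant replicate 2). They numbered 7 by edgeR, 8 by DESeq2 and 0 at an adjusted p of 0.05. Neighbours called, 3, ran from 1 to 5 (1 without mutant replicate 2, 3 or 4, 5 without control replicate 4), with 1 after quantile normalization and 0 at an adjusted p of 0.05. With a replicate block the neighbours called were 6 and the genes of the motor lists 9. The genotype difference of the block fit rests on replicates 3, 4 and 5 alone. Control replicate 1 and mutant replicate 2 have no library of their number in the other genotype. In that fit Dynlt1b was at −4.93, the sum at −0.99, Dynlt1a at −0.65, Dynlt1f at 0.20 and Dynlt3 at −0.04. The replicate numbers were not shown to pair libraries, since the deviations of same-numbered libraries had correlations of 0.1004, 0.098 and 0.082. Across numbers too, controls 1 and 3 correlated above 0 with mutants 2 and 3, as did controls 4 and 5 with mutants 4 and 5, and the remaining correlations were below 0. In controls the mean log2 ratio of Dynlt1a to Dynlt1b, −1.53 per kilobase, ran from −1.63 to −1.38 as 1 library was left out and was −2.55 per unique 50-base window, a scale added after the data were seen. The causes were not tested. Depth limited the mutant values of Dynlt1b, at 11 to 146 reads.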
